A study of Mus musculus with 18 samples.

Results

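A group of 10 immediate-early genes was followed through the first hours of the response of mouse dendritic cells to lipopolysaccharide (LPS), in cells with and without the SUMO-conjugating enzyme Ubc9. They are the AP-1 genes Fos, Fosb, Jun and Junb, the related bZIP gene Atf3, the EGR genes Egr1, Egr2 and Egr3, and the immediate-early response genes Ier2 and Ier3. They were chosen by symbol, with earlier results of these data known, as 10 of the 19938 genes on the arrays. Each was measured by 1 probe set that names it alone. Cells grown from bone marrow were wild type or UBC9KO, and were left unstimulated or given LPS at 10 ng/ml for 1 h or 6 h. Each of these 6 groups had 3 Affymetrix Mouse Gene ST 1.0 arrays, 18 in all, which the series design calls biological replicates. All cultures, wild type included, grew for 10 days in RPMI medium with 10% FBS, pen/strep and 20 ng/ml GM-CSF. All of them also received 100 nM 4-hydroxytamoxifen at day 6, a drug used to switch on tamoxifen-dependent Cre. The labels do not name the allele, the Cre driver, or the strain and age of the mice.

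Immediate-early genes are switched on within minutes of a stimulus, without new protein synthesis, because the factors that drive them are already in the cell. In myeloid cells LPS acts through Tlr4 and MAP kinases, which activate serum response factor with its partners, CREB and ATF proteins, while NF-kB enters the nucleus. The products are mostly transcription factors: FOS and JUN proteins pair as AP-1, and EGR proteins bind GC-rich sites with zinc fingers. Their mRNAs are short-lived, so a burst of transcription gives a peak that passes.

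Promoters were searched for motifs through which immediate-early genes are known to be read. RefSeq (GRCm38.p6) had promoter entries for 7 of the 10 genes. Egr1, Egr3 and Ier2 had none. The 150 bases before the annotated start are printed 5′ to 3′ on the gene's strand for 6 genes, 2 of which (Fosb and Ier3) carried calls in the knockout against wild type at 1 h. Capitals mark motif matches found by a search of both strands for 9 kinds of motif. Egr2 has 5 annotated starts, and the 1 shown was taken from those with the most motif matches. Its matches were thus picked from 5 windows, while the shares of windows below count each window once.

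Fos, chr12:85473740-85473889, plus strand: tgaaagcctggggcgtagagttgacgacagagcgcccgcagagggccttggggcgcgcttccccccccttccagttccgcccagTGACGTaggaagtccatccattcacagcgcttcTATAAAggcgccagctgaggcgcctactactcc
Fosb, chr7:19310046-19310195, minus strand: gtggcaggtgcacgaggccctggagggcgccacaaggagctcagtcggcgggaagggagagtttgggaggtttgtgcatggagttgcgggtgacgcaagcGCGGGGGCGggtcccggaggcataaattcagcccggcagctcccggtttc
Jun, chr4:95052223-95052372, minus strand: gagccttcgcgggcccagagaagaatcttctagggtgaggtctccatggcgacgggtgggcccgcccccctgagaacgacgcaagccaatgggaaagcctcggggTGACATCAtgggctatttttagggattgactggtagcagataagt
Egr2, chr10:67537719-67537868, plus strand: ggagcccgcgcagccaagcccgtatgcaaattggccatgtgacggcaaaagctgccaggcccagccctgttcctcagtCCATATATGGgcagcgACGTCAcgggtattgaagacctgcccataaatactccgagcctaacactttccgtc
Ier3, chr17:35821563-35821712, plus strand: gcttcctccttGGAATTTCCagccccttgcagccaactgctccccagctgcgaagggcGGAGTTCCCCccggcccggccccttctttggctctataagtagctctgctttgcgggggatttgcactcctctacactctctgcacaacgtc
Atf3, chr1:191183334-191183483, minus strand: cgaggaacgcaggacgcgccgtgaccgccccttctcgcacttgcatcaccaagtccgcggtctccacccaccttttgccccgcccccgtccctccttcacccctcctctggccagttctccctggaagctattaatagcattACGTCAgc

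In Fos the capitals are the 6-base core of the cyclic AMP response element, TGACGT, and a TATA box, TATAAA. The same element stands on the other strand, as ACGTCA, in Egr2 and Atf3. Among all 32851 promoter windows of 300 bases (250 before to 50 after the start), 7.51% held TGACGT on either strand and 13.6% held TATAAA. The capitals in Fosb are an EGR site (GCGTGGGCG or GCGGGGGCG), found in 3.47% of windows. In Jun they are TGACATCA, an AP-1 variant known from this promoter, found in 3.62%. Egr2 shows a CArG box, the core bound by serum response factor, found in 1.63% of windows. Ier3 shows a pair of kappa B motifs, of which GGAATTTCC was found in 0.317% of windows and the 10-base form in 4.51%. The full cyclic AMP response element TGACGTCA (1.79%) and the classical AP-1 site, TGACTCA or TGAGTCA (5.2%), had no match in the windows of these 7 genes. For Junb, TATAAA at bases 1 to 6 after the start was the one match. Fos and Fosb each held a 10-base kappa B match farther upstream than the printed bases. These matches describe letters, and no binding was measured.

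Within a group, Pearson's r over all probe sets was at least 0.983, and no array was a copy of another. Among dendritic cell markers, Itgax (CD11c) read 10.57 to 11.22, Cd74 11.28 to 11.83, Zbtb46 4.92 to 5.53 and Flt3 4.66 to 7.13 log2 units over all arrays. The mean of 8 such markers was lower on every knockout array than on every wild-type array of the same condition: 8.97 to 9.02 against 9.20 to 9.52 unstimulated, 8.94 to 9.10 against 9.36 to 9.50 at 1 h and 9.27 to 9.30 against 9.51 to 9.84 at 6 h. For macrophages, the mean of 9 measured markers lay between 8.80 and 9.46 on wild-type arrays and between 9.13 and 10.29 on knockout arrays. It was highest on the 3 knockout arrays with replicate number 3, called knockout culture 3 here. These markers did not move together. Unstimulated means, knockout against wild type, were 6.92 against 9.06 for Marco and 9.66 against 6.57 for Fcgr1. In bulk RNA, fewer cells of a type and less RNA per cell cannot be told apart, and the part of cell makeup in the results below was not tested. Means of the neutrophil, B cell, T and NK cell, mast cell, erythroid and stromal lists lay between 3.45 and 6.09, and within the neutrophil list S100a8 read 10.47 to 12.21 while Ly6g read 2.80 to 3.41. Signals are log2 values on which different probe sets cannot be ranked, so levels are compared within a gene only.

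After 1 h of LPS, 6 of the 10 genes in each genotype had all 3 arrays above every unstimulated and every 6 h array of that genotype, a pattern shown by 1.8% of all genes in wild type and 1.87% in knockout. Fosb, Junb, Egr1, Ier2 and Ier3 peaked in both genotypes, Fos in wild type and Egr2 in knockout. The 10 genes were chosen with earlier results of these data known. Shares of all genes, here and below, give scale and do not test the group. By limma's test (adjusted p under 0.05 over all genes), 2 of 10 rose in wild-type cells, where 0.301% of all genes changed and 0.256% rose. In knockout cells 6 of 10 rose, where 0.667% of all genes changed and 0.537% rose. With only the groups compared in the fit, the knockout count was 3. By limma's unadjusted p under 0.05 the count was 6 of 10 in each genotype, beside 5.75% and 8.56% of all genes. Unlike counts of calls do not test a difference between genotypes, for which the interaction is given below. The median change of the 10 genes was 0.44 log2 units in wild type and 0.84 in knockout, beside 0.01 and -0.03 over all genes. At 1 h, 4 of the 10 were higher in the knockout, Fosb, Junb, Egr1 and Ier3, and none was lower.

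**Figure D1:**
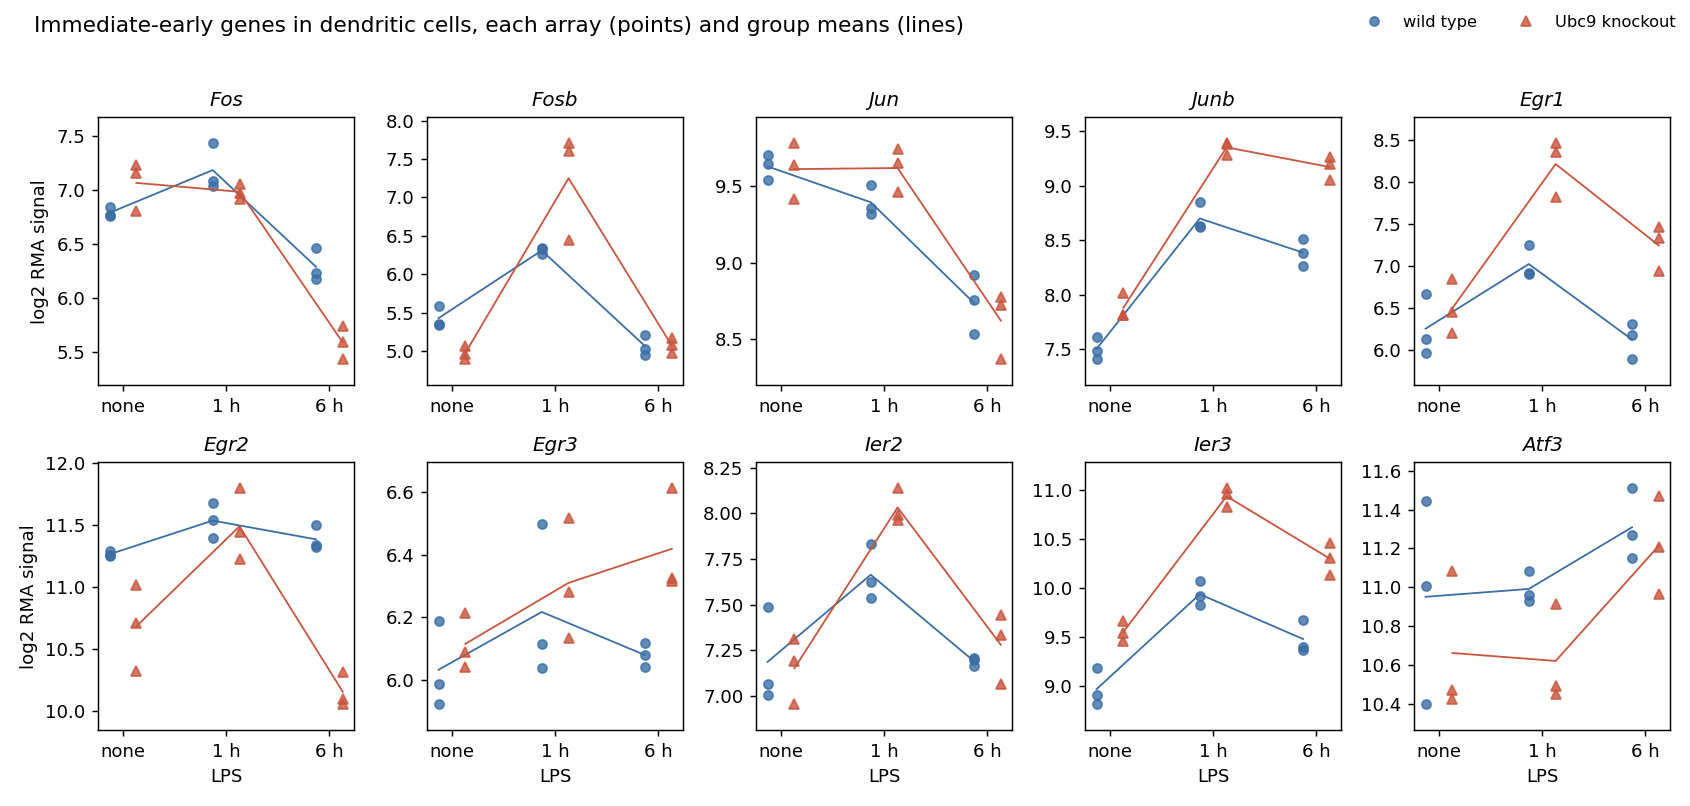
Log2 RMA signal (vertical axis, own scale for each gene) of the 10 genes without LPS and at 1 h and 6 h, with 1 point per array and lines through the group means of wild-type and Ubc9 knockout cells. Fosb, Junb, Egr1, Ier2 and Ier3 stand highest at 1 h in both genotypes, with the 3 knockout arrays above the 3 wild-type arrays at that time.

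Fosb, a FOS protein that pairs with JUN partners and can be spliced to a shorter form, gave the largest first-hour rise of the 10 genes in the knockout. Its signal in wild-type cells was 5.59, 5.34 and 5.35 unstimulated, 6.32, 6.34 and 6.26 at 1 h and 5.21, 4.95 and 5.03 at 6 h. In knockout cells it was 5.07, 4.97 and 4.89 unstimulated, 7.71, 7.60 and 6.44 at 1 h and 5.08, 4.97 and 5.17 at 6 h. The knockout arrays lay below the wild-type arrays before LPS and above them at 1 h, and the third knockout array at 1 h stood more than a log2 unit under the other two. The rise was 2.27 ± 0.22 (SE, n = 3 per group) in the knockout, 4.84-fold, with a limma adjusted p of 2.2e-05. In wild type it was 0.88 ± 0.22 with an adjusted p of 0.19, although the change was positive in all 3 cultures, at 0.73, 1.00 and 0.91. With only the groups compared in the fit, the knockout rise had an adjusted p of 0.063 and the wild-type rise 0.020. Before LPS the genotypes differed by -0.45 ± 0.22, which was not called (adjusted p = 0.43, 95% interval from -0.92 to 0.02). Knockout exceeded wild type at 1 h by 0.94 ± 0.22 (limma adjusted p = 0.034). That call was lost when any array of wild type at 1 h, knockout array 1 or 2 at 1 h or unstimulated knockout array 2 was left out (adjusted p up to 0.17), and when only those 2 groups were fitted (0.25). By 6 h the genotypes differed by 0.01 log2 units, with a 95% interval from -0.46 to 0.48.

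Junb, the JUN family member that often restrains c-Jun, rose in every culture and stayed up. Its wild-type signal was 7.41, 7.62 and 7.49 unstimulated, 8.62, 8.63 and 8.85 at 1 h and 8.39, 8.26 and 8.51 at 6 h. In knockout cells it was 7.82, 7.81 and 8.01, then 9.28, 9.38 and 9.39, then 9.26, 9.05 and 9.20. The 6 groups did not overlap in any neighbouring pair of this order, and the knockout lay above wild type at all 3 times. The first-hour rise was 1.20 ± 0.10 in wild type (limma adjusted p = 5.9e-06) and 1.47 ± 0.10 in knockout (5.5e-07). The difference between genotypes was 0.38 ± 0.10 without LPS (adjusted p = 0.058), 0.65 ± 0.10 at 1 h (0.0012) and 0.78 ± 0.10 at 6 h (2.3e-05).

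Fos and Jun, the classical AP-1 pair, did not follow that course. Fos was at 6.77, 6.84 and 6.75 in unstimulated wild-type cells, 7.08, 7.03 and 7.43 at 1 h and 6.46, 6.17 and 6.23 at 6 h. In the knockout it was at 6.81, 7.16 and 7.23, then 6.97, 6.92 and 7.05, then 5.74, 5.43 and 5.59. Wild-type arrays at 1 h stood above all unstimulated ones, and knockout arrays at 1 h lay inside the unstimulated range. The first-hour change was 0.39 ± 0.13 in wild type (limma adjusted p = 0.50) and -0.08 ± 0.13 in knockout (0.96), neither called. At 1 h the knockout minus wild-type difference was -0.20, with a 95% interval from -0.47 to 0.07. Jun began at 9.54 to 9.70 in wild type and 9.41 to 9.78 in knockout. Its 1 h values, 9.32 to 9.51 and 9.46 to 9.75, were not called as changed. Its first-hour change was -0.24 (95% interval -0.51 to 0.04) in wild type and 0.01 (-0.27 to 0.28) in knockout. Neither gene therefore passed the test at 1 h in either genotype. No time between unstimulated and 1 h was sampled, so an earlier peak could not be seen.

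Atf3, a bZIP repressor induced by stress and by Toll-like receptors, showed no peak at 1 h in either genotype. Wild-type arrays read 11.01, 10.40 and 11.45 unstimulated, 10.96, 10.93 and 11.09 at 1 h and 11.15, 11.27 and 11.51 at 6 h. Knockout arrays read 10.43, 10.47 and 11.09, then 10.50, 10.45 and 10.92, then 10.97, 11.21 and 11.47. The unstimulated wild-type arrays spanned over 1 log2 unit. No comparison of Atf3 was called, and its first-hour change had a 95% interval from -0.44 to 0.52 in wild type and from -0.52 to 0.44 in knockout. At 1 h all 3 knockout arrays lay below the wild-type arrays, as in 12% of all genes, and the difference of -0.37 ± 0.23 was not called (limma adjusted p = 0.63). With the culture as a block, the 6 h values in the knockout were called higher than those at 1 h (0.59, limma adjusted p = 0.0039, against 0.061 without the block) and than unstimulated (0.55, 0.0057 against 0.076).

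**Figure D2:**
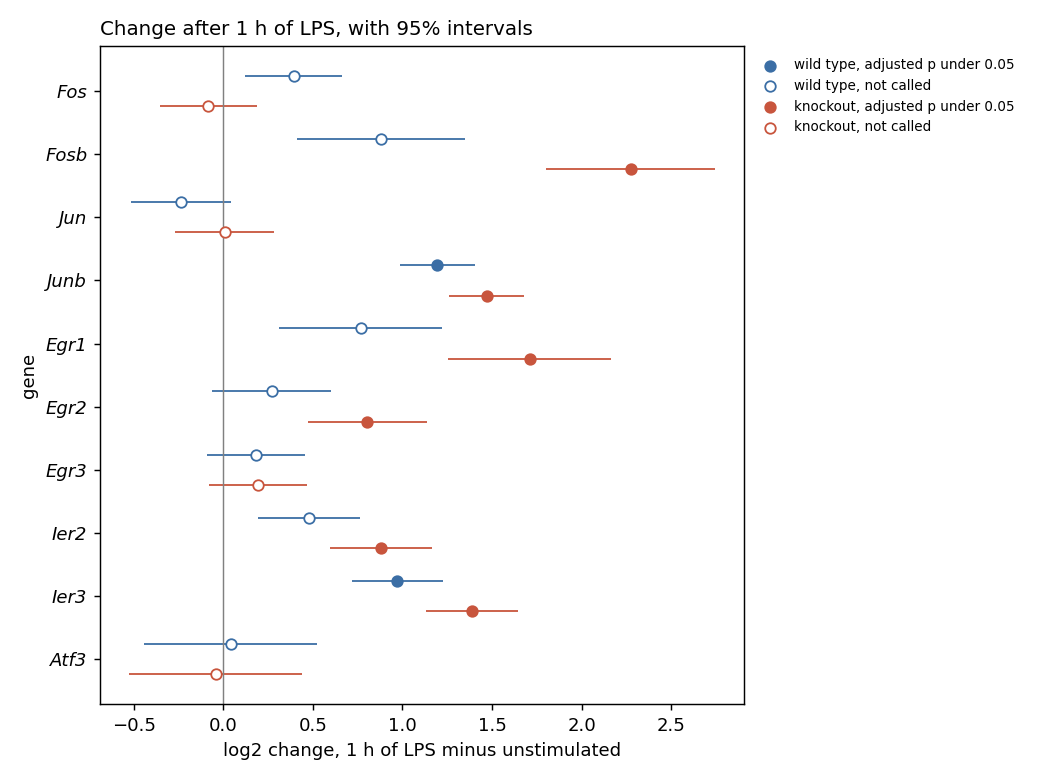
Log2 change from unstimulated to 1 h of LPS for each gene (vertical axis) in wild-type and knockout cells, with limma's 95% intervals before adjustment; filled points passed an adjusted p of 0.05. Junb and Ier3 are filled in both genotypes, and Fosb, Egr1, Egr2 and Ier2 in the knockout.

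Egr1, the founding EGR factor and a standard marker of ERK signalling, was higher in the knockout at 1 h and 6 h. Its wild-type signal was 6.67, 5.97 and 6.13 unstimulated, 6.92, 6.90 and 7.25 at 1 h and 6.18, 6.31 and 5.89 at 6 h. In knockout cells it was 6.45, 6.21 and 6.84, then 7.83, 8.35 and 8.46, then 7.46, 7.33 and 6.94. The unstimulated groups overlapped, and the 1 h and 6 h knockout arrays stood above all wild-type arrays of the same time. The knockout rose by 1.71 ± 0.21 in the first hour, 3.27-fold (limma adjusted p = 3.1e-04), and wild type by 0.77 ± 0.21 (0.31, not called). Knockout minus wild type was 0.24 ± 0.21 unstimulated (adjusted p = 0.75), 1.19 ± 0.21 at 1 h (0.0053) and 1.12 ± 0.21 at 6 h (9.2e-04).

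Egr2, a zinc finger factor that is also a lineage gene of myeloid cells, had another shape. Wild-type cells read 11.25, 11.25 and 11.29 unstimulated, 11.39, 11.54 and 11.67 at 1 h and 11.32, 11.49 and 11.33 at 6 h. Knockout cells read 10.32, 10.71 and 11.02 unstimulated, 11.23, 11.44 and 11.80 at 1 h and 10.06, 10.10 and 10.31 at 6 h. The knockout lay below wild type before LPS, overlapped it at 1 h and lay below it again at 6 h. Its first-hour rise was 0.80 ± 0.16 in the knockout (limma adjusted p = 0.020) and 0.27 ± 0.16 in wild type (0.92). The knockout call was lost without unstimulated knockout array 1 or 2, or 1 h knockout array 2 or 3 (adjusted p from 0.069 to 0.12), and with only its 2 groups fitted (0.40). At 1 h the genotypes differed by -0.05, with a 95% interval from -0.38 to 0.29. Unstimulated, the difference was -0.58 ± 0.16 (adjusted p = 0.068, and 0.032 with the culture as a random block). Knockout culture 3 had the highest Egr2 of the knockout cultures in all 3 conditions and also the highest macrophage marker mean. Any link between these was not tested. Without the 3 arrays of that culture the unstimulated difference was -0.75 (adjusted p = 0.00355).

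Egr3, an EGR factor known for its role in lymphocyte tolerance, stayed in a narrow band of 5.92 to 6.61 over all 18 arrays. Its first-hour change was 0.18 ± 0.13 in wild type and 0.19 ± 0.13 in knockout, neither called. At 6 h the 3 knockout arrays (6.32, 6.33 and 6.61) stood above the wild-type arrays (6.08, 6.04 and 6.12). That difference of 0.34 ± 0.13 had a limma adjusted p of 0.059, and 0.042 with the culture as a random block.

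Ier2, a small nuclear protein induced by growth factors, read 7.07, 7.49 and 7.01 in unstimulated wild type and 7.54, 7.62 and 7.83 at 1 h. In the knockout it rose from 7.19, 7.31 and 6.96 to 7.99, 8.14 and 7.96, and by 6 h both genotypes had returned to 7.06 to 7.44. The 1 h arrays of the knockout stood above those of wild type, while the genotypes overlapped before LPS and at 6 h. The first-hour change was 0.88 ± 0.13 in the knockout (limma adjusted p = 0.0022) and 0.48 ± 0.13 in wild type (0.31, not called), and the knockout value with only its groups fitted was 0.053. The gap of 0.37 at 1 h was not called (adjusted p = 0.24), with a 95% interval before adjustment from 0.08 to 0.65.

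Ier3, also called IEX-1, an NF-kB target that modulates cell survival and ERK, was higher in the knockout throughout. Its wild-type signal was 9.18, 8.90 and 8.81 unstimulated, 9.92, 9.82 and 10.07 at 1 h and 9.67, 9.40 and 9.36 at 6 h. In the knockout it was 9.66, 9.53 and 9.46, then 10.83, 11.02 and 10.96, then 10.30, 10.46 and 10.13. No knockout array overlapped a wild-type array of the same time. The first-hour rise was 0.97 ± 0.12 in wild type (limma adjusted p = 6.3e-04) and 1.39 ± 0.12 in knockout (5.3e-06). Knockout exceeded wild type by 1.00 ± 0.12 at 1 h (adjusted p = 1.4e-04). Unstimulated, it was the single member called between genotypes, 0.59 ± 0.12 (adjusted p = 0.013), where 2.44% of all genes were called and 1.8% were higher. All 3 unstimulated knockout arrays lay above the wild-type arrays for Junb and Ier3, as for 8.02% of all genes, and below them for Fosb and Egr2, as for 6.54%. In the same comparison 3 of 9 macrophage markers were higher and 1 of 8 dendritic cell markers was lower, and their part was not tested. The Ier3 call was lost without unstimulated knockout array 1 or wild-type array 2 or 3 (adjusted p up to 0.064) and with only these 2 groups fitted (0.12).

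**Figure D3:**
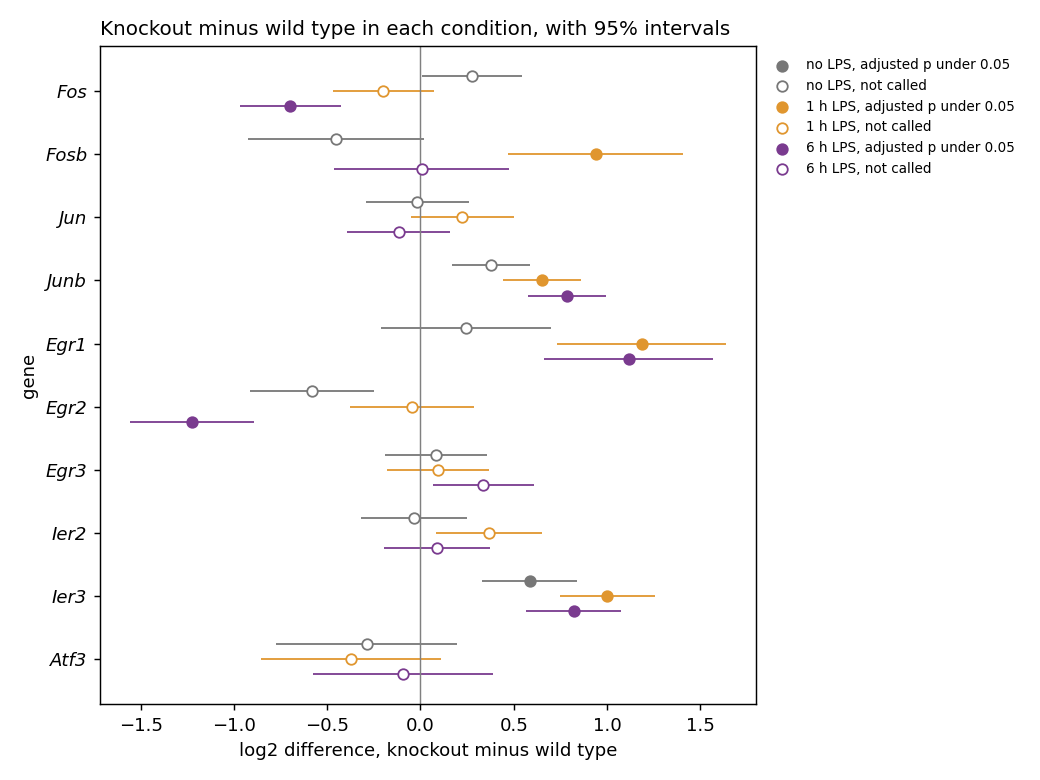
Log2 difference, knockout minus wild type, for each gene (vertical axis) without LPS and at 1 h and 6 h, with limma's 95% intervals before adjustment; filled points passed an adjusted p of 0.05. Ier3 is right of zero and filled in all 3 conditions, Junb and Egr1 at 1 h and 6 h and Fosb at 1 h, while Egr2 and Fos are filled left of zero at 6 h.

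Between genotypes at 1 h, the 4 calls among 10 stood beside 2.19% of all genes called and 1.5% called higher. All 3 knockout arrays lay above all wild-type arrays for 5 of the 10, the same 4 genes and Ier2, beside 7.58% of all genes. The median difference of the 10 genes was 0.30 log2 units, against -0.03 over all genes. Without the 3 arrays of knockout culture 3, the differences at 1 h were 1.34 for Fosb, 0.63 for Junb, 1.06 for Egr1 and 0.99 for Ier3, all 4 still called. Beside these rises, 2 of 9 macrophage markers were higher and 1 was lower in the knockout at 1 h, with a list median of 0.56. None of 8 dendritic cell markers was called, with a list median of -0.33 against -0.03 over all genes and no overlap between the genotypes in the list mean. Their part in the result was not tested.

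Whether the size of the first-hour rise differed between genotypes was asked by the interaction term, the knockout rise minus the wild-type rise. No gene of 19938 passed it in limma (0%, smallest adjusted p of 1), and none did with either form of the replicate block, while 592 genes (2.97%) had an unadjusted p under 0.05, among them 6 of the 10. The interaction was 1.39 ± 0.31 for Fosb, with a 95% interval before adjustment from 0.73 to 2.06. It was 0.94 (0.30 to 1.59) for Egr1, 0.53 (0.06 to 1.00) for Egr2 and 0.42 (0.06 to 0.78) for Ier3. For Ier2 it was 0.40, with an interval that barely left out 0 (0.0009 to 0.81). For Junb the interval, -0.02 to 0.57, held 0. Fos went the other way, at -0.48 (-0.86 to -0.09). The share of 2.97% over all genes is below what an unadjusted threshold of 0.05 passes on average where nothing differs. A single array decided the call for Fosb: without the third 1 h knockout array its interaction was 1.80 with a limma adjusted p of 4.5e-05. Without all 3 arrays of that culture it was 1.76 (3.34e-04), and the wild-type rise of Fosb then passed too (3.96e-04).

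From 1 h to 6 h most of the 10 genes fell. In wild type 6 of 10 fell, Fos, Fosb, Jun, Egr1, Ier2 and Ier3, beside 5.91% of all genes changed and 2.87% lower. In knockout 7 of 10 fell, those 6 and Egr2, beside 29.3% changed and 17.1% lower. These falls share their 1 h arrays with the rises above. In the knockout, Fosb fell by 2.18 (limma adjusted p = 2.7e-06), Fos fell by 1.39 (8.9e-07) and Egr2 fell by 1.33 (1.1e-05). Jun fell by 1.00 (3.0e-05), Egr1 fell by 0.97 (0.0030), Ier2 fell by 0.75 (5.4e-04) and Ier3 fell by 0.64 (8.4e-04). In wild type they were -1.24 for Fosb (0.0027), -0.89 for Fos (4.9e-04), -0.66 for Jun (0.0054) and -0.90 for Egr1 (0.019). Ier2 fell by 0.47 in wild type (0.048) and Ier3 by 0.46 (0.032). Leaving out 1 h or 6 h wild-type array 3 ended the wild-type calls of Egr1, Ier2 and Ier3, which left Fos, Fosb and Jun. The Ier2 call was also lost without most other single arrays and with arrays centred on their median (adjusted p up to 0.20), and the Ier3 call without wild-type 1 h array 1 or 2 or 6 h array 2. Junb changed by -0.31 in wild type, called with the culture as a block (adjusted p = 0.042) and not without it (0.082), and its value in knockout was -0.18 (0.18). Egr2 was the member whose decline differed between genotypes, by -1.18 ± 0.22 (limma adjusted p = 0.0041), where 7.65% of all genes were called and 4.74% were lower. For Fosb the same term was -0.93 (0.081, and 0.029 with the culture as a block).

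At 6 h some genes remained above their unstimulated level and others lay below it. Junb and Ier3 were higher than unstimulated in wild type (0.88 and 0.51) and in knockout (1.29 and 0.75), and Fos and Jun were lower in both. Fos fell by 0.50 in wild type and fell by 1.47 in knockout, and Jun fell by 0.90 and fell by 1.00. All 8 were called in limma, the wild-type values where 8.1% of all genes changed (4.23% higher, 3.86% lower) and the knockout values where 32.2% changed (12% higher, 20.2% lower). The knockout calls also took in Egr1, higher by 0.74, and Egr2, lower by 0.53. With the culture as a block, Egr3 was called too (0.30, adjusted p = 0.015 fixed and 0.026 random). Several of the smaller calls were lost without 1 array: wild-type Fos without unstimulated array 2 or 6 h array 2 or 3, wild-type Ier3 without unstimulated array 2 or 3 or 6 h array 1, and knockout Egr1 and Egr2 without any of several arrays of their groups (adjusted p up to 0.12). Fos was the member whose 6 h change differed between genotypes, by -0.98 ± 0.18 (limma adjusted p = 0.0029), where 10.2% of all genes were called and 7.18% were lower. With the culture as a fixed block the same term was also called for Junb (0.41, 0.041) and Egr2 (-0.65, 0.0035), and with the random block for Egr1 as well (0.87, 0.043). Without knockout culture 3 that term was 1.20 for Egr1 (0.019).

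Between genotypes at 6 h, 5 of 10 genes were called, beside 29.4% of all genes (10.6% higher, 18.8% lower), a far wider background than at 1 h. Junb (0.78), Egr1 (1.12) and Ier3 (0.82) were higher in the knockout, and Fos (-0.70 ± 0.13, limma adjusted p = 6.0e-04) and Egr2 (-1.23 ± 0.16, 2.6e-05) were lower. All 3 knockout arrays lay above the wild-type arrays for 4 of the 10 (these 3 and Egr3), as for 19.6% of all genes, and below them for Fos and Egr2, as for 24.8%. Knockout arrays at 6 h stood apart as a group, with a 75th percentile of 7.15 to 7.33 against 7.39 to 7.51 on the other arrays. Centring every array on its median left these 5 calls in place. The median difference over all genes was only 0.04 log2 units, so this centring cannot address the shift at the 75th percentile. At 6 h, 3 of 8 dendritic cell markers were lower in the knockout (list median -0.33), and of 9 macrophage markers 3 were higher and 2 lower (median 0.46). Whether these markers bear on the 5 calls was not tested.

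The other genes of the pathway were read from lists. Of 12 AP-1 and bZIP partners none was called at 1 h in wild type and 2 rose in knockout: Fosl2, a FOS family gene, by 0.77 ± 0.11 (limma adjusted p = 0.0010), and Maff, a small MAF partner, by 1.57 ± 0.23 (0.0017). Maff was lower in unstimulated knockout cells by 0.99 ± 0.23 (0.031). With only the groups compared in the fit, neither knockout rise was called (0.077 for both). With the culture as a fixed block, Fosl2 (0.45, 0.034) and Maff (0.82, 0.028) were called in wild type also, and with the random block Fosl2 alone was (0.028). None of the 6 serum response factor and partner genes, and none of Egr4, Nab1 and Nab2, the last of which restrain EGR factors, was called at 1 h in either genotype or between them.

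Of 29 other immediate-early genes, 2 rose at 1 h in wild type and 9 in knockout, with list medians of 0.29 and 0.42 beside 0.01 and -0.03 over all genes. With the culture as a fixed block the counts were 8 and 14, and with only the groups compared 0 and 2. The wild-type count was 0 without 1 h wild-type array 3 and 1 without most other single arrays, and the knockout count was 5 without unstimulated or 1 h knockout array 2. Gem, a small GTPase, rose in both, by 1.73 ± 0.27 (limma adjusted p = 0.0054) and 2.10 ± 0.27 (3.6e-04). Gadd45b, a stress and growth arrest gene, rose by 1.70 ± 0.34 in wild type (0.049). That call was lost without most single arrays (adjusted p up to 0.31) and with only the groups compared in the fit (0.38). With the culture as a block, Gadd45b was also among the genes called as rising in the knockout. In the knockout the strongest calls beside Gem were Csrnp1 (1.53 ± 0.18, 1.4e-04), Trib1, a pseudokinase (1.36 ± 0.16, 1.4e-04), and Phlda1 (1.58 ± 0.21, 4.8e-04). Between genotypes at 1 h, 4 of the 29 were called, where 2.19% of all genes were, and 2 with only the groups compared in the fit. Csrnp1 was higher in the knockout by 1.03 ± 0.18 (0.0035), Ier5 by 0.58 ± 0.13 (0.031) and Rgs1 by 1.03 ± 0.24 (0.034). Bhlhe40, a helix-loop-helix repressor, was lower by 0.87 ± 0.08 (6.0e-06). Ier5 and Rgs1 were lost without wild-type 1 h array 1 or 2 or knockout 1 h array 3, and Rgs1 also without knockout 1 h array 2 (adjusted p up to 0.18). Of 12 measured genes of the MAP kinase pathway, Map3k8 (TPL2), which activates ERK after Tlr4, rose in both genotypes, by 0.82 ± 0.11 (0.0015) and 0.84 ± 0.11 (4.8e-04). Rps6ka3 (RSK2), an ERK-activated kinase, was lower in the knockout at 1 h by 0.62 ± 0.12 (0.0077). With only the groups compared in the fit, the wild-type Map3k8 rise (0.091) and the Rps6ka3 difference (0.056) were not called.

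**Figure D4:**
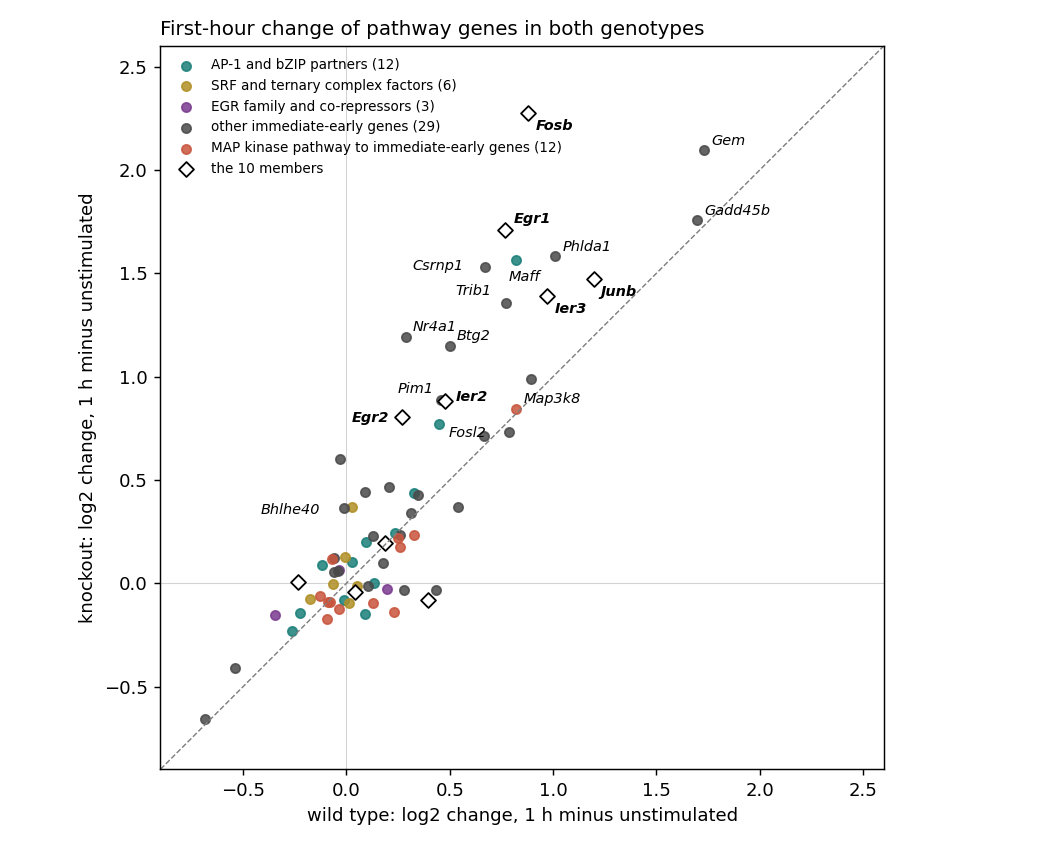
Log2 change from unstimulated to 1 h of LPS in wild type (horizontal) and knockout (vertical) for the 10 genes (diamonds) and 62 genes of 5 pathway lists (points, coloured by list), with a dashed line of equal change. Fosb (0.88 against 2.27) and Egr1 (0.77 against 1.71) lie farthest above the line among the 10, and Gem (1.73 against 2.10) is the highest list gene.

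Across the 18 arrays, which share 6 groups and so are not independent, the 10 genes fell into unlike patterns. Fosb (0.81), Egr1 (0.81), Ier2 (0.79) and Ier3 (0.71) correlated best with the mean of the others (Pearson's r), and Atf3 ran against it (-0.37). Fos and Jun resembled each other (0.83), as did Egr1 and Ier3 (0.92) and Junb and Ier3 (0.91). A search for like genes took 5604 others whose values spanned at least 1 log2 unit. Only standard symbols were kept (no Gm number, Rik, LOC or accession names). Of these, the 8 most like the mean of the 10 were Dusp1 (0.94), a phosphatase of MAP kinases, Nfkbid (0.92), Trib1 (0.91), Flrt3 (0.91), Errfi1 (0.89), Cish (0.86), Hilpda (0.86) and Btg1 (0.86). Among the same 5604, the single nearest gene was Foxred2 for Fos (0.97), Fosl2 for Fosb (0.88), Rasa3 for Jun (0.95), Nfkbiz for Junb (0.98) and Kcnj2 for Egr2 (0.88). It was Csrnp1 for both Egr1 (0.90) and Ier3 (0.94), Trib1 for Ier2 (0.92), Csf1 for Egr3 (0.86) and Met for Atf3 (0.84).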

How the data were processed

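The authors deposited RMA values of 18 arrays (background correction, quantile normalisation and probe set summary), with RMA named in the submitters' processing notes without a version. The values were used as deposited log2 signals; the log base is not stated, and their range is that of log2 values. Labelled RNA was 200 ng per array. A platform annotation named 1 symbol for 21789 of 35556 probe sets, several for 1621 and none for 12146; the highest-mean probe set was kept, which gave 19938 genes. No filter on low signal was applied. All 10 genes passed the alternative filter, a highest group mean of at least 6.

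One limma 3.58.1 fit (R 4.3.3) of 6 group means with 12 residual degrees of freedom gave 12 comparisons, 2-sided, with p-values adjusted by Benjamini-Hochberg over all genes. The script was tested on simulated data. Errors after ± are standard errors. Arrays limit precision by their number. Replicates are called biological, without separate animals being named. The main fit had no replicate block, so its p-values measure the spread between arrays within groups and leave out the pairing described below.

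Replicate numbers paired arrays within a genotype. Same-numbered arrays correlated in deviations at 0.15 to 0.80, and 18 of 18 correlated best with their own number. Across genotypes the values were -0.11 to 0.30, with 13 of 27 pairs over 0.1, so pairing there was weaker and uncertain. Same-numbered arrays of a genotype are called cultures here as a name only. The labels do not say whether they shared cells, a processing day or another batch.

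All 10 genes are named. List genes are named by up to 4 smallest adjusted p among calls at 1 h. The members and lists were chosen with earlier results of these data known. Of 127 list entries 119 were measured. The other list entries and the targeted gene are not reported here. Alternatives were the replicate block, the groups in the fit, the filter, centring, the probe sets and single arrays left out. Leaving out knockout culture 3, and the list genes under all alternatives, were added after seeing the data.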

Additional observations from a re-analysis of the deposited data

Results flagged for a closer look

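The change of Egr2 from 1 h to 6 h differed between the genotypes in limma's interaction test: the knockout change minus the wild-type change was -1.18 log2 units (adjusted p = 0.0041). The change of Fos from unstimulated to 6 h differed in the same kind of test, by -0.98 log2 units (adjusted p = 0.0029).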

How the results depend on the processing

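Of 3000 re-computed changes of single genes among the 10, 2889 kept their side of the threshold and none that was called turned its direction; 54 lost a call and 57 gained one, and 52 others changed sign while called in neither fit. The counts below are genes called of 10. In the knockout at 1 h, 6 became 3 with only the groups compared. For knockout minus wild type unstimulated, 1 became 3 with the replicate block across genotypes, where the pairing of numbers was weak and uncertain. That count became 2 with the random replicate block and 0 with only the groups compared. With the filter on low signal it was 3, and without knockout culture 3 it was 2. For the interaction at 1 h, 0 became 1 without that culture. For the interaction from 1 h to 6 h, 1 became 2 with the fixed or random replicate block and without that culture. For the interaction at 6 h, 1 became 3 with the fixed block, 4 with the random block, 3 with the filter and 2 without that culture. The block moved no other count of the 10 by over 1.5 times. With single arrays left out, the counts ranged from 0 to 3 for knockout minus wild type unstimulated, 0 to 1 for the interaction at 1 h, 1 to 2 from 1 h to 6 h and 1 to 3 at 6 h, 3 to 6 for the wild-type decline and 2 to 5 for wild type at 6 h against unstimulated. Low signals, such as Fosb without LPS, carry no detection call, so their fold changes are less certain than their errors show.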
